A study of Mus musculus with 21 samples.

Results

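This comparison set unmodified md cells against unmodified embryonic stem (ES) cells of the mouse, using the 6 wild-type RNA-seq libraries of the 21 samples in the series. The members are the 3 wild-type md libraries and the 3 wild-type ES libraries, taken by their labels and joined transcript by transcript. The md cells are a line made from mandibular arch tissue of embryos at 11.5 days post coitum, from CD1 females crossed with an 'Immortomouse' male, a strain that carries a temperature-sensitive simian virus large T antigen under the interferon-inducible H-2Kb promoter. They grew at 33 °C with 10% fetal calf serum and 100 U/ml murine interferon. The ES cells are E14Tg2a.4, the parental line of a gene-trap clone, kept on gelatin with 15% fetal calf serum, 2 mM glutamine, 1 mM pyruvate and leukaemia inhibitory factor (LIF). The remaining RNA-seq samples are 4 Rbm10 knockout md clones and 3 libraries of an Rbm10 gene-trap ES line. The other 8 samples are individual-nucleotide crosslinking and immunoprecipitation (iCLIP) libraries of md cells, 4 with an RBM10 antibody and 4 with rabbit IgG. Each wild-type group is 1 cell line, and nothing in the labels says that its 3 libraries came from separate cultures, so p-values measure only the spread between these libraries. Cell type, strain, medium, temperature, interferon and the table in which the values were deposited all differ together between the groups and cannot be told apart. A gene of the Y chromosome, Eif2s3y, also differed, and the part of sex in the comparison was not tested.

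ES cells are the cultured form of the early epiblast, held undifferentiated by a network of transcription factors around Pou5f1, Nanog and Sox2. Mandibular arch cells are largely mesenchyme of neural crest origin, which forms the bone, cartilage and connective tissue of the lower jaw. Between such cells, many genes differ in level, and many others keep their level but differ in which exons, start sites or ends their transcripts carry. RBM10 is a splicing regulator that binds pre-mRNA, and it is the protein that the series studies.

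Levels are in TPM, each transcript's share of its library after correction for transcript length. A gene's level is the sum over its annotated transcripts. Both tables listed the same 100249 transcripts, of which 84877 were joined to the annotation; these held 91.0% to 91.5% of the TPM of the md libraries and 86.7% to 87.5% of that of the ES libraries. A larger share of transcripts was listed at 0 in the md libraries (51.4% to 52.1%) than in the ES libraries (48.2% to 48.9%). The number of reads is unknown, so no counting error can be given. A value of 0 can be a failed estimate, as mt-Nd3, a mitochondrially encoded subunit of complex I that every cell uses, was listed at 0 in all 3 ES libraries and between 76.3 and 144 TPM in the md libraries; such genes are therefore called listed at 0.

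Of 13728 genes that reached 1 TPM in 3 or more of the 6 libraries, 6654 (48.5%) differed by at least 1 unit of log2(TPM + 1) at an adjusted p under 0.05 in limma. Among them, 3533 (25.7%) were higher in md cells and 3121 (22.7%) higher in ES cells. With the libraries scaled by the median ratio over genes, 2866 were higher in md cells and 3586 in ES cells, so which side has more calls depends on the scaling. With no minimum difference, 11679 genes (85.1%) passed, and the 2 groups did not overlap for 11922 genes (86.8%). The within-group SD of log2(TPM + 1) had a median of 0.0892, which is small beside the differences described here. Since nearly every gene differs by some amount, the size of a difference carries more than its p-value, and counts within a gene list are read against these percentages. Over all genes tested, the median difference was 0.15 (md minus ES). It was -0.07 when the libraries were scaled by the median ratio over genes, so a small difference has no fixed direction.

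**Figure D1:**
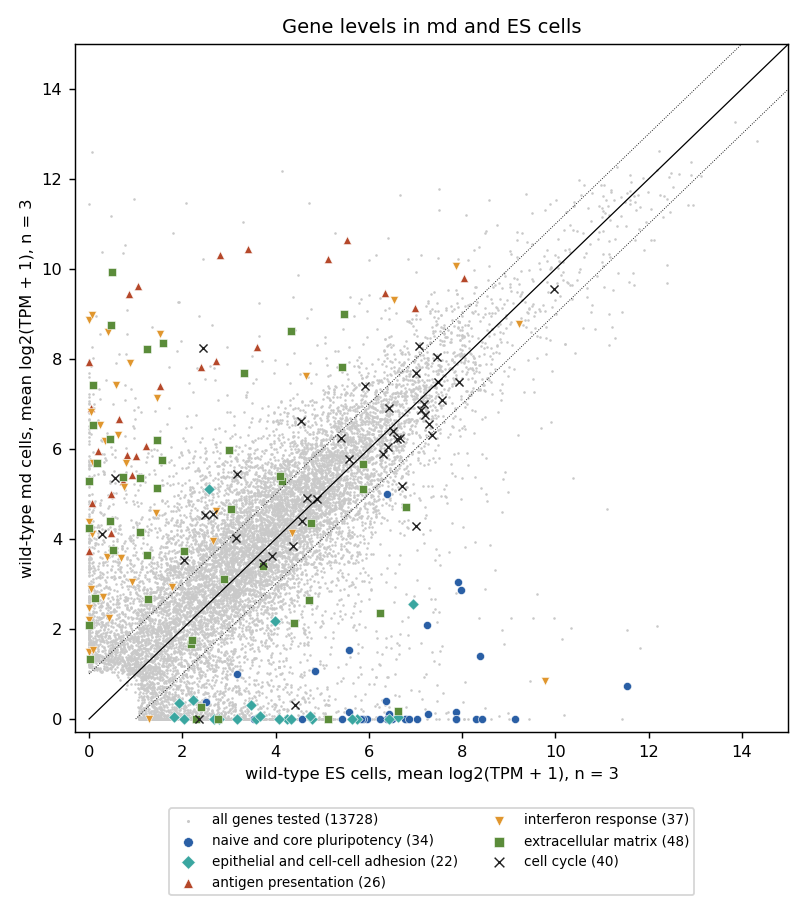
Mean log2(TPM + 1) of each gene tested in wild-type ES cells (horizontal axis) and wild-type md cells (vertical axis), 3 libraries each; the solid line marks equal levels, the dotted lines a difference of 1 log2 unit, and coloured symbols mark tested members of 6 gene lists. The pluripotency and epithelial genes lie along the lower edge, antigen presentation genes lie in the upper left, and cell cycle genes lie mostly near the line of equal levels.

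The pluripotency network separated the groups most plainly. All 34 of the 34 matched naive and core pluripotency genes were higher in ES cells, with a median difference of -6.10 beside 0.15 over all genes tested. Pou5f1, the POU factor without which the epiblast is not maintained, was at 553, 571 and 557 TPM in the ES libraries and listed at 0 in every md library. Nanog, a homeobox factor of the same network, measured 344, 337 and 313 TPM in ES cells against 1.67, 1.48 and 1.70 TPM in md cells. Zfp42 (Rex1), a marker of the naive state, was at 340, 377 and 245 TPM in ES cells and listed at 0 in md cells. The smallest difference in the list belonged to Klf4, a factor also expressed outside the embryo's stem cells, at 85.9, 98.0 and 67.6 TPM in ES cells and 33.6, 31.1 and 28.9 TPM in md cells (difference -1.38, SE 0.14). The Nodal ligand, its antagonists and its co-receptor were also higher in ES cells: Lefty1, Lefty2, Nodal and Tdgf1 were listed at 0 in md cells and averaged 111, 58.2, 29.3 and 233 TPM in ES cells.

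Genes that mark neighbouring states were present in ES cells at lower levels on average over each list. Of the 18 matched genes of the primed state and of germ layers, 13 did not reach the minimum level. The 5 that did were all higher in ES cells, led by Pax6 (40.2 TPM) and Otx2 (22.1 TPM), both listed at 0 in md cells. None of the 18 was at 1 TPM or more in every md library, and 5 were in every ES library. The minimum level was thus met through ES cells, which largely set this direction. Zscan4f, which marks a rare state of ES cells resembling the embryo at its first cleavage, averaged 88.0 TPM in ES cells and 2.58 TPM in md cells. It belongs to a cluster of near-identical genes, so its value can include reads of its neighbours. In the list for that state, 5 genes were tested, 3 were higher in ES cells and 2, Dub1 and Eif1a, were not called. Eif1a had its higher level in md cells (116.6 against 69.1 TPM). Of 17 matched germline genes, 12 were tested and all 12 were higher in ES cells, among them Stag3, a meiotic cohesin subunit (41.3 against 0.801 TPM), and Ddx4, a germ cell helicase (7.16 TPM, listed at 0 in md cells). In every ES library 12 germline genes were at 1 TPM or more, and in every md library 1 was. The minimum level therefore largely set the direction of this count.

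Transcription factors of arch and limb mesenchyme were mostly higher in md cells. Of 51 matched genes in the list of pharyngeal arch and mesenchyme factors, 19 did not reach the minimum level and 26 were higher in md cells. Prrx1, a homeobox gene of craniofacial mesenchyme, was at 47.3, 49.1 and 49.8 TPM in md cells and listed at 0 in ES cells. Its relative Prrx2 was at 54.5, 57.3 and 60.5 TPM in md cells against 1.92, 3.48 and 3.78 TPM in ES cells. The factors with basic helix-loop-helix domains Twist1 and Twist2 averaged 22.2 and 25.4 TPM in md cells and 1.82 and 0.0733 TPM in ES cells. Dlx1 and Dlx2, which pattern the proximal part of the arches, averaged 10.8 and 9.23 TPM in md cells and stayed below 0.2 TPM in each ES library. Runx2, the master regulator of bone formation, was at 7.29, 9.30 and 11.03 TPM in md cells and listed at 0 in ES cells. The list of bone and cartilage genes was mixed: of 5 tested, Runx2 and Sox9 were higher in md cells, Alpl and Col2a1 were higher in ES cells and Spp1 was not called. Alpl, the tissue-nonspecific alkaline phosphatase also known from ES cells, averaged 95.2 TPM in ES cells and was listed at 0 in md cells.

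Several genes that define the mandibular arch in the embryo were listed at or near 0 in the md libraries. Hand2, Pitx1, Barx1, Lhx8, Alx4 and Gsc were listed at 0 in all 3 md libraries, and Dlx5, which specifies the lower jaw, did not exceed 0.0418 TPM. Pdgfra, a common marker of arch mesenchyme, was between 0.207 and 0.291 TPM. First arch mesenchyme is known for its lack of Hox gene expression. Of the 39 Hox genes, 30 did not reach the minimum level. Yet 7 of the 9 tested were higher in md cells, and none was higher in ES cells. In every md library 8 Hox genes were at 1 TPM or more, and in every ES library 1 was. Most tested members thus met the minimum level through md cells, so this count is not read against the 25.7% of all genes tested. Hoxb9 was at 29.9, 31.0 and 30.8 TPM in md cells against 0.270, 0.363 and 0.322 TPM in ES cells. Hoxd8 averaged 18.1 TPM in md cells, and Hoxb6, Hoxb7, Hoxb8 and Hoxd9 between 7.01 and 9.62 TPM, while each of these 5 stayed at or below 0.1303 TPM on average in ES cells.

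Markers of other cell types were checked in the same libraries. Sox10, a marker of migrating neural crest and glia, and Ptprc, the pan-leukocyte antigen CD45, were listed at 0 in the md libraries. In md cells, 10 of 11 skeletal muscle markers, 8 of 12 endothelial markers and 6 of 11 leukocyte markers were listed at 0 in every library. So were 6 of 11 neural and glial markers and 6 of 9 trophoblast markers. Beside these counts, 51.4% to 52.1% of all transcripts were at 0 in the md libraries, a share of transcripts and not of genes. The mean log2(TPM + 1) over the leukocyte list ranged from 0.257 to 0.323 in md cells and from 1.196 to 1.264 in ES cells; that over the endothelial list ranged from 0.173 to 0.220 in md cells and from 1.03 to 1.18 in ES cells, which also express Pecam1 (24.1 TPM), an adhesion molecule known from both endothelium and ES cells. Of 15 fibroblast markers, 8 did not reach the minimum level, 4 were higher in md cells and 2 (Gli1 and Thy1) were higher in ES cells. Hprt, the purine salvage enzyme, was at 160, 163 and 158 TPM in md cells and at 0.214, 0.122 and 0.121 TPM in ES cells. The E14Tg2a lineage is known as an Hprt-deficient line, so this gene checks the ES label. Eif2s3y, on the Y chromosome, was at 34.4, 37.6 and 34.0 TPM in ES cells and 4.94, 3.14 and 3.39 TPM in md cells. It was listed at 0 in all 4 Rbm10 knockout md clones.

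**Figure D2:**
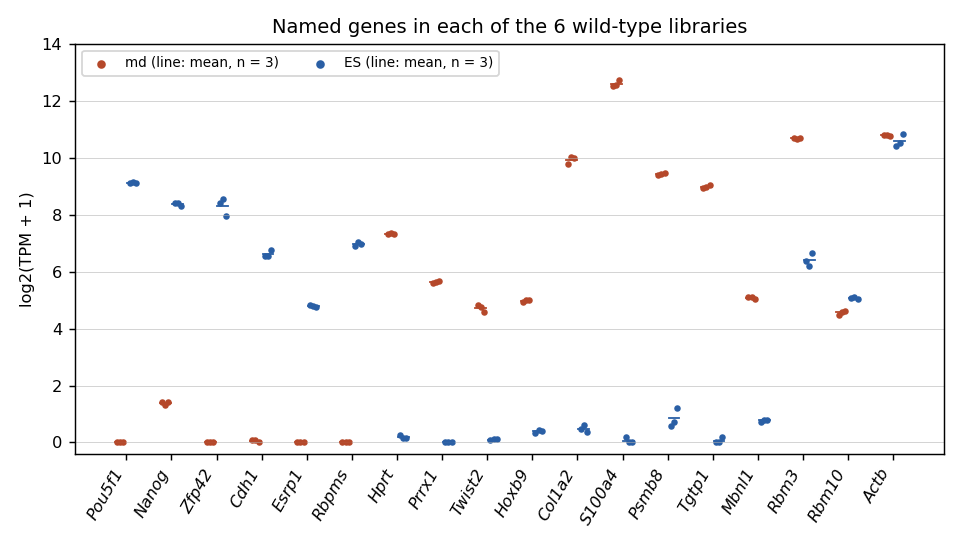
Level of 18 genes in each wild-type library, as log2(TPM + 1); points are libraries and short lines are group means (n = 3 each). The libraries of 1 group lie close together, the groups are far apart for all genes but Rbm10 and Actb, and Rbm10 is the closest pair that still does not overlap.

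Genes of the extracellular matrix were mostly higher in md cells, but the 2 cell types expressed different matrices. Of 58 matrix genes, 48 were tested, 32 were higher in md cells, 9 were higher in ES cells and 7 were not called. Col1a2 and Col1a1, the chains of fibrillar collagen type I, averaged 984 and 435 TPM in md cells and 0.408 and 0.379 TPM in ES cells. Lysyl oxidase (Lox), which crosslinks collagen, averaged 173 TPM in md cells and 0.0556 TPM in ES cells. The 9 genes higher in ES cells included components of basement membranes: Nid2 (nidogen) was at 94.6, 97.7 and 99.3 TPM in ES cells against at most 0.163 TPM in md cells, and the laminin chains Lama1, Lama5 and Lamb1 averaged 5.85, 75.6 and 25.3 TPM in ES cells against 0, 4.54 and 5.30 TPM in md cells. Fibronectin (Fn1), often used as a mesenchymal marker, was higher in ES cells, at 110, 132 and 91.3 TPM against 26.2, 25.9 and 23.2 TPM in md cells (difference -2.09, SE 0.13).

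Epithelial genes were mostly higher in ES cells, and mesenchymal adhesion genes went both ways. Of 27 epithelial genes, 22 were tested; 21 were higher in ES cells, including Cdh1 (E-cadherin; 97.8 against 0.0377 TPM), Epcam (52.5 TPM) and Cldn4 (49.2 TPM), the last 2 listed at 0 in md cells. The exception was the keratin Krt19, at 32.3, 33.3 and 34.9 TPM in md cells and 3.75, 4.74 and 6.67 TPM in ES cells. Cdh2 (N-cadherin) averaged 31.5 TPM in md cells and 3.72 TPM in ES cells, and the hyaluronan receptor Cd44 averaged 49.2 and 0.162 TPM. Of the 17 tested mesenchymal adhesion and integrin genes, 10 were higher in md cells, 4 were higher in ES cells and 3 were not called. The 4 were Eng, Thy1, Cd24a and the integrin chain Itga6, which averaged 53.5 TPM in ES cells and 5.88 TPM in md cells. Of 37 actin cytoskeleton genes and targets of the serum response factor, 36 were tested, 21 were higher in md cells, 4 were higher in ES cells and 11 were not called. S100a4, a calcium-binding protein known as fibroblast-specific protein, was the gene with the highest difference by the naming rule (5829, 5981 and 6735 TPM against 0.141, 0 and 0 TPM; difference 12.53, SE 0.08). The 4 genes higher in ES cells are the smooth muscle genes Tagln, Myl9, Cnn1 and the muscle intermediate filament Des: Tagln was at 8.61, 8.62 and 11.9 TPM in ES cells and 2.89, 1.91 and 2.00 TPM in md cells. Myl9 was uneven among the ES libraries, at 4.88, 4.66 and 28.96 TPM, against 1.01, 1.40 and 1.82 TPM in md cells. Actb did not differ beyond the threshold (1774 against 1550 TPM; difference 0.21, SE 0.12, adjusted p = 0.147).

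Interferon-responsive genes and the antigen presentation machinery formed the most uniform group on the md side, in cells that were grown with interferon. All 26 of the 26 antigen presentation genes were higher in md cells, with a median difference of 5.07. Psmb8, a catalytic subunit of the immunoproteasome, was at 680, 693 and 702 TPM in md cells and did not exceed 1.33 TPM in ES cells. Tap1, a chain of the peptide transporter, averaged 167 TPM in md cells and 1.86 TPM in ES cells. The class I heavy chains H2-K1 and H2-D1 averaged 1404 and 1274 TPM in md cells against 9.72 and 6.06 TPM in ES cells; heavy chain genes are close copies of one another, so the split between them is uncertain. Class II genes, which interferon gamma induces through the transactivator Ciita, were on as well: H2-Aa averaged 120 TPM and Ciita 12.2 TPM in md cells, against 0.0236 TPM and a listed 0 in ES cells. Of 43 interferon-responsive genes, 37 were tested, 33 were higher in md cells and 2, Ifitm1 and Oas2, were higher in ES cells. The guanosine triphosphatases Tgtp1, Igtp and Irgm1, which act against intracellular pathogens, averaged 506, 387 and 241 TPM in md cells and less than 1 TPM in ES cells. Ifitm1, a membrane protein of an interferon-induced family, was at 918, 921 and 790 TPM in ES cells and at most 0.924 TPM in md cells. The receptor chains Ifngr1 and Ifngr2 were also higher in md cells, at 11.2 and 26.6 TPM against 2.61 and 3.50 TPM. The share of these differences that goes with the interferon in the medium was not tested.

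Promoter sequences of 32 of the 37 tested interferon-responsive genes were matched by symbol in RefSeq (GRCm38.p6, 250 bases before to 50 bases after each start). 2 copies of the letters GAAA with 2 bases between them, as in the interferon-stimulated response element, stood on either strand in 21 of their 37 promoters (56.8%), beside 3.44% of all 32851 promoters of that length. The letters TTCNNNGAA, the core of STAT factor sites, stood in 11 of the 37 (29.7%), beside 8.30% of all promoters; both patterns may overlap each other. For the antigen presentation list, the shares were 4 of 24 (16.7%) and 2 of 24 (8.33%). An example from each list that holds the paired GAAA is shown here, with the matching letters in capitals. Not every member was open to this choice, so another member that holds the pair may have a larger difference. Tgtp1 has a close copy, Tgtp2, beside it, which averaged 228 TPM in md cells.
Tgtp1 (chr11:48992197-48992496, minus strand): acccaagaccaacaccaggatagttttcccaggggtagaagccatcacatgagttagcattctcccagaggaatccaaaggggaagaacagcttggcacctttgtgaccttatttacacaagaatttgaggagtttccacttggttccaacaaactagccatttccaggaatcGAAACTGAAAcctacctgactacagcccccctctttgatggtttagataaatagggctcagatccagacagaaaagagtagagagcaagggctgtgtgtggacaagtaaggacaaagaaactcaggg
H2-T23 (chr17:36032652-36032951, minus strand): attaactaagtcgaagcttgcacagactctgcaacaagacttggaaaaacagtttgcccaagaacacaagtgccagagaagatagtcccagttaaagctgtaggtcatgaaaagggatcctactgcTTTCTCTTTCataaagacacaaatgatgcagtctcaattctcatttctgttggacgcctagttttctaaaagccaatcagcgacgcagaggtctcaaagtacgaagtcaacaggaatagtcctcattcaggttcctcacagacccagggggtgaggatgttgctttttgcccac
A match describes the letters and is not evidence that a factor binds there.

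In the fibroblast growth factor (FGF) list, 12 of 15 tested genes were higher in ES cells and 1 in md cells. The ligand Fgf4 averaged 56.0 TPM in ES cells and was listed at 0 in md cells, and the feedback genes Spry4 and Dusp6, which FGF signalling induces, averaged 27.8 and 22.6 TPM against 0.0160 and 0.919 TPM. Etv5, a transcription factor target, was at 169, 173 and 162 TPM in ES cells and 1.29, 1.94 and 1.15 TPM in md cells. Fgf7, the mesenchymal ligand that acts on epithelia, was the reverse, at 11.1 TPM in md cells and 0.173 TPM in ES cells.

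Of 10 tested Hedgehog genes, 4 were higher in md cells, 5 were higher in ES cells and 1 was not called. The membrane transducer Smo averaged 48.2 TPM in md cells and 9.94 TPM in ES cells, whereas Gli1, the usual target gene, was at 30.1, 30.3 and 37.3 TPM in ES cells and at most 0.0853 TPM in md cells. Gli2 averaged 32.9 TPM in ES cells and was listed at 0 in md cells. The transforming growth factor beta, BMP and Nodal list was mixed, with 14 of 33 tested genes higher in md cells, 10 higher in ES cells and 9 not called. In this list, Tgfbr2, the type II receptor, averaged 27.1 TPM in md cells and 0.168 TPM in ES cells, and the activin subunit gene Inhba 31.1 and 0.0369 TPM. In the WNT list, 12 of 22 tested genes were higher in ES cells and 6 in md cells, with Wnt5a at 26.4 TPM in md cells (0.423 in ES cells) and beta-catenin (Ctnnb1) at 587 TPM in ES cells (79.5 in md cells). In the Notch list, 10 of 17 tested genes were higher in ES cells and 2 in md cells. The receptor tyrosine kinase Axl averaged 274 TPM in md cells and 0.725 TPM in ES cells.

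Most cell cycle genes were not called. Of 40 genes, all tested, 15 were called (10 higher in md cells, 5 in ES cells), beside 48.5% of all genes. Top2a, a topoisomerase of proliferating cells, was at 180, 182 and 176 TPM in md cells and 179, 174 and 179 TPM in ES cells, and the groups overlapped. The largest difference in this list was that of Cdkn2a, which encodes inhibitors that act on the retinoblastoma and p53 pathways: 303, 283 and 328 TPM in md cells against 4.93, 4.59 and 3.92 TPM in ES cells. Its neighbour Cdkn2b averaged 39.9 and 0.480 TPM. Trp53 itself was higher in ES cells (345 against 100.7 TPM), and so was Mdm2 (62.1 against 24.6 TPM), both as 3 of 3 ES libraries above all md libraries. Cdkn1a, the classical p53 target, was at 8.37, 9.64 and 9.46 TPM in md cells and 14.3, 16.4 and 16.3 TPM in ES cells, below the threshold for a call (difference -0.72, SE 0.08).

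Chromatin, metabolism and stress genes gave further single contrasts. The de novo methylation cofactor Dnmt3l averaged 170 TPM in ES cells and 0.101 TPM in md cells, and Dnmt3b 54.7 and 2.16 TPM, whereas the maintenance methyltransferase Dnmt1 averaged 32.7 and 28.3 TPM and was not called. Tdh, the threonine dehydrogenase on which mouse ES cells depend, was at 564, 526 and 598 TPM in ES cells and listed at 0 in md cells. The 2 lactate dehydrogenase genes went opposite ways, Ldhb at 206 TPM in ES cells and 0.0925 TPM in md cells, Ldha at 1074 TPM in md cells and 409 TPM in ES cells. Rbm3, an RNA-binding protein known for induction by mild cold, was at 1642, 1627 and 1671 TPM in md cells, which were grown at 33 °C, and 81.5, 72.1 and 100 TPM in ES cells. The other well-known cold-inducible gene, Cirbp, had its higher level in ES cells (36.4 against 19.3 TPM; difference -0.88, SE 0.08) and was below the threshold for a call. The small heat shock protein Hspb1 was at 471, 445 and 646 TPM in ES cells and listed at 0 in md cells. Over the whole list of cold and heat shock genes, 6 of 16 tested were higher in md cells, 2 were higher in ES cells and 8 were not called. Among those higher in md cells were the chaperones Hspa5 (606 against 54.3 TPM) and Hspd1 (692 against 237 TPM). The part of temperature in these values was not tested. Of 13 mitochondrially encoded genes, 10 were higher in ES cells, among them mt-Nd4 (2410 against 424 TPM), and 1, mt-Nd3, was higher in md cells.

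**Figure D3:**
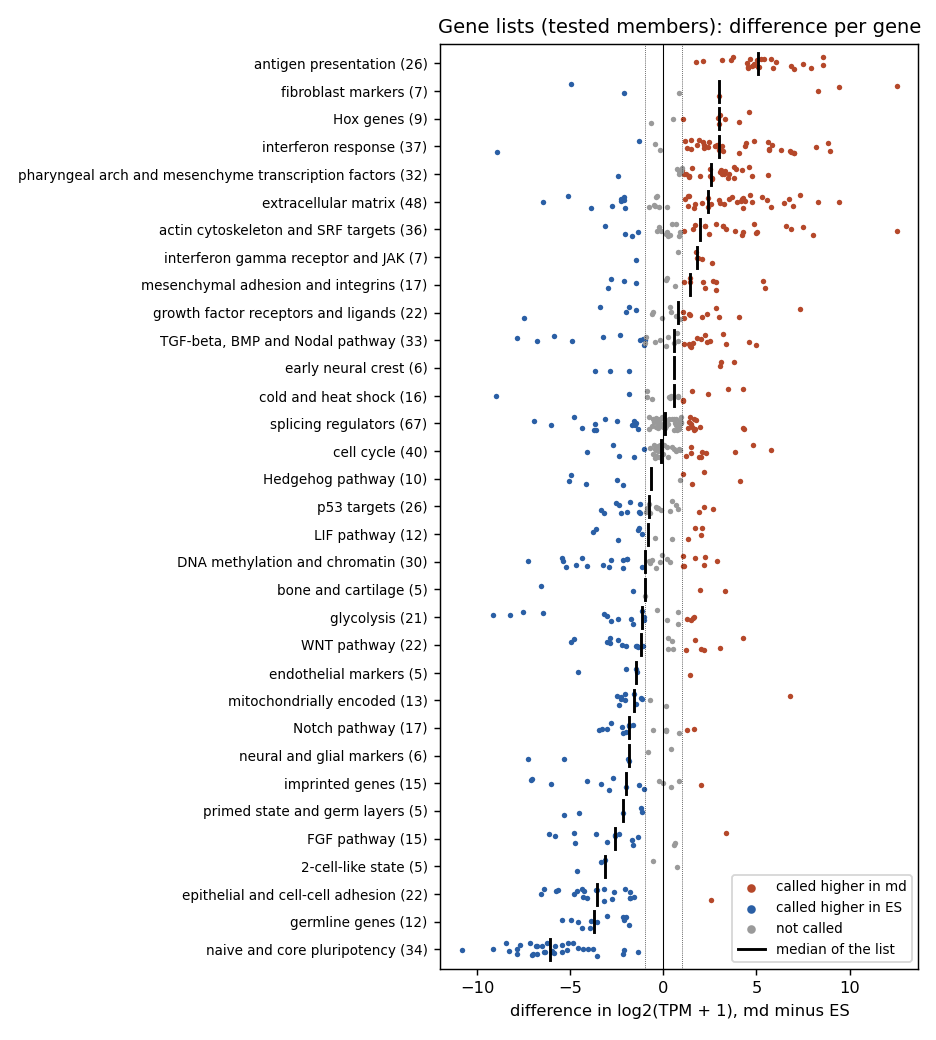
Difference in log2(TPM + 1), md minus ES, for each tested member of 33 gene lists, sorted by the list's median (black bar); the number of tested members stands in brackets, and dotted lines mark 1 log2 unit. Pluripotency, germline and epithelial genes lie on the ES side, antigen presentation and interferon genes on the md side, and cell cycle and splicing regulator genes cluster around 0 with single genes far out.

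Some of the highest values belonged to genes with near-identical copies, and for these the gene assignment is uncertain. Ftl1, the ferritin light chain, was at 2086, 2179 and 2063 TPM in md cells and 9.53, 8.02 and 9.04 TPM in ES cells. Its copy Ftl2, annotated as a pseudogene, had the opposite pattern, at most 0.715 TPM in md cells and 3390, 3340 and 2707 TPM in ES cells; the sum of both averaged 2110 TPM in md cells and 3154 TPM in ES cells. Rps4y2, a ribosomal protein gene copy among the 15 lowest genes of the naming rule, averaged 689 TPM in ES cells and was listed at 0 in md cells, while Rps4x averaged 2291 and 2348 TPM. The predicted gene Gm10163 averaged 2794 TPM in md cells and was listed at 0 in ES cells, and Gm15536 was at 2762 TPM in ES cells and listed at 0 in md cells. Ftl2, Rps4x and both predicted genes were named after their values were seen. Pseudogenes held 15.3% to 15.7% of the TPM in md libraries and 12.5% to 13.2% in ES libraries. Of 689 pseudogenes tested, 213 were higher in md cells and 172 in ES cells. The part of strain variation or of the quantification in these values was not tested. Gapdh, which also has many processed copies in the mouse, averaged 2502 TPM in ES cells and 352 TPM in md cells.

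A minority of splicing regulators was called, and single members differed by large amounts. Of 75 listed genes, 74 were matched, 67 were tested, 12 were higher in md cells, 14 were higher in ES cells and 41 were not called. These 26 calls among 67 stand beside 48.5% of all genes, and the median difference of the list was 0.08. The muscleblind gene Mbnl1, whose proteins are known to oppose ES-specific exon choice, was at 33.4, 33.8 and 31.9 TPM in md cells and 0.662, 0.728 and 0.740 TPM in ES cells. Its relatives Mbnl2 and Mbnl3 averaged 16.1 and 8.71 TPM in md cells against 4.57 and 1.497 TPM in ES cells, so all 3 were higher in md cells. On the ES side, the epithelial splicing factor Esrp1 averaged 26.6 TPM and Rbpms, a regulator with an RNA recognition motif, 124 TPM; both were listed at 0 in md cells. Rbm47, another epithelial factor, averaged 11.6 TPM in ES cells and 0.0211 TPM in md cells. Ptbp1, a repressor of neuronal exons, was abundant in both cell types (410 and 494 TPM in md and ES cells) and not called, and its paralog Ptbp2 was higher in md cells (32.2 against 11.5 TPM). Among SR and hnRNP genes, Srsf3 (456 against 173 TPM), Hnrnpk (196 against 61.5 TPM) and Hnrnpa2b1 (779 against 311 TPM) were higher in md cells.

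Rbm10 was expressed in both cell types, at 21.4, 23.2 and 23.7 TPM in md cells and 32.5, 33.5 and 32.2 TPM in ES cells. The groups did not overlap, but the difference of -0.50 (SE 0.06, adjusted p = 1.56e-04) is below the threshold for a call. Its paralogs differed more and in opposite directions: Rbm5 averaged 9.51 TPM in md cells and 2.81 TPM in ES cells, and Rbm6 averaged 1.196 and 5.29 TPM. Both calls were lost with a pseudocount of 5.

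Isoform use was measured as a share within a gene, which does not depend on how a library is scaled. Exon inclusion is the percent of TPM in transcripts that contain an exon, among transcripts that contain it or span it. Of 3649 exons tested in 2049 genes, 2207 (60.5%) differed by at least 10 percentage points at an adjusted p under 0.05; 1162 (31.8%) had higher inclusion in md cells and 1045 (28.6%) in ES cells. The median difference without regard to sign was 13.97 points, beside a median SD within a group of 2.39 points in md cells and 2.81 points in ES cells. Called shares were close over exon lengths, from 58.3% of 1020 single exons of 28 to 80 nt and 60.5% of 119 single exons up to 27 nucleotides (nt) to 63.3% of the 281 longest single exons. They were also close for coding exons whose length is a multiple of 3 (60.8% of 1394) and for other coding exons (61.3% of 1450). Exons of genes whose level was not called differed in 59.4% of 2543 cases. With protein-coding transcripts only, 1217 of 2047 exons were called.

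The exons shown here, from the mm9 genome, are called exons of genes that both cell types express, chosen after their values were seen to show exons of different lengths and both directions. Capitals mark the exon and lower case letters the 20 nt of intron on each side.
Higher inclusion in md cells:
Palm 132-nt exon (chr10:79279537-79279668, plus strand): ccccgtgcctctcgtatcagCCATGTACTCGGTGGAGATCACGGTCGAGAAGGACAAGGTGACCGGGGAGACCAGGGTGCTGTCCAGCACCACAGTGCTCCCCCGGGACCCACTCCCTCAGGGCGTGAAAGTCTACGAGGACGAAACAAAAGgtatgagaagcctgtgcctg
Plod2 63-nt exon (chr9:92496823-92496885, plus strand): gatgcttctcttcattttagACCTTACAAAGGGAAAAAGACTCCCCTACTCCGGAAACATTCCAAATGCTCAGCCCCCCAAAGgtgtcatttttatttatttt
Flna 24-nt exon (chrX:71478306-71478329, minus strand): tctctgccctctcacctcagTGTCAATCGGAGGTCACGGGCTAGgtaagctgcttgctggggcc
Mark3 45-nt exon (chr12:112891601-112891645, plus strand): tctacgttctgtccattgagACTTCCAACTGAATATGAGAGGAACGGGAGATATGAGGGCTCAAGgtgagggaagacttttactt
Macf1 9-nt exon (chr4:123063792-123063800, minus strand): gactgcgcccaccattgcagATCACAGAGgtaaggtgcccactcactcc
Cask 18-nt exon (chrX:13173812-13173829, minus strand): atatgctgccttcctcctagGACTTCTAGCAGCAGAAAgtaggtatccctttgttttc
Cltb 54-nt exon (chr13:54698387-54698440, minus strand): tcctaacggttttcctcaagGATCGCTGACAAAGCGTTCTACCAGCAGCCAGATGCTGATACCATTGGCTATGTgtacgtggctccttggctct
Tead1 12-nt exon (chr7:119999567-119999578, plus strand): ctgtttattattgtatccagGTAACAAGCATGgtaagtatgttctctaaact
Tpm1 76-nt exon, 3′ member of the pair (chr9:66879758-66879833, minus strand): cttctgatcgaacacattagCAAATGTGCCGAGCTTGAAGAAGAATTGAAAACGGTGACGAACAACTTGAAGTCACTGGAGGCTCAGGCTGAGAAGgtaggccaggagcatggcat
Higher inclusion in ES cells:
Tpm1 76-nt exon, 5′ member of the pair (chr9:66880273-66880348, minus strand): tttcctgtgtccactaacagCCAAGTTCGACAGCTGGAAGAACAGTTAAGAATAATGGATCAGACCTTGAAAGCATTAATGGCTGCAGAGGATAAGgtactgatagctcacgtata
Numb 147-nt exon (chr12:85138147-85138293, minus strand): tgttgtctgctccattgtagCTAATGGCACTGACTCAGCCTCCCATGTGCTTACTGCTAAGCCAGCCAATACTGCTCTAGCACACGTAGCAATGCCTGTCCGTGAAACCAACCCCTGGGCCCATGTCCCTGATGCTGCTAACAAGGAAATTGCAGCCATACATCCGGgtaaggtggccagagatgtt
All 11 exons shown overlap annotated coding sequence and are flanked by ag and gt. Their lengths are multiples of 3 except for those of the Tpm1 pair, whose members replace each other.

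Palm encodes paralemmin, a lipidated protein of the plasma membrane. Its 132-nt exon was included at 74.9%, 75.8% and 76.6% in md cells and at 0.327%, 0.517% and 0.644% in ES cells, a difference of 75.3 points (SE 1.49, adjusted p = 9.08e-07) at similar gene levels of 22.4 and 14.8 TPM. In Plod2, a collagen lysyl hydroxylase whose 63-nt exon distinguishes a long and a short enzyme, inclusion was 90.9%, 92.6% and 92.3% in md cells and 35.5%, 24.1% and 36.5% in ES cells. Plod2 itself was not called at gene level (9.62 against 12.4 TPM). The 24-nt exon of Flna, which encodes the actin crosslinker filamin A, was at 78.8%, 75.0% and 77.7% in md cells and 31.2%, 27.4% and 25.0% in ES cells. Mark3, a kinase of microtubule-associated proteins, included its 45-nt exon at 87.0%, 87.2% and 81.6% against 57.5%, 54.7% and 44.98%. For each of these 4 exons, the lowest md library lay above the highest ES library. They were chosen among called exons, and the share of all exons without overlap is not given here, so this is not read as a result.

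The shortest exons shown also differed. Macf1, a giant linker of microtubules and actin, included its 9-nt exon at 66.7%, 64.1% and 60.4% in md cells and 35.4%, 27.2% and 35.7% in ES cells. The 18-nt exon of Cask, a membrane scaffold kinase, was at 39.5%, 43.2% and 41.7% against 13.1%, 9.48% and 8.32%. In each of these 2 genes the only annotated transcript with the exon is marked as incomplete at an end. Tead1, the DNA-binding partner of YAP, carried its 12-nt exon at 40.5%, 43.4% and 24.7% in md cells and 9.83%, 7.72% and 12.98% in ES cells, with more spread among md libraries. The 54-nt exon of the clathrin light chain Cltb was at 86.2%, 87.1% and 84.9% against 58.5%, 57.6% and 52.1%, but the difference of 29.99 points became 5.82 points when only transcripts annotated as complete were used.

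Tpm1, a tropomyosin that strengthens actin filaments, showed a switch within the pair of 76-nt exons printed above, which agree at 43 of 76 positions. The 3′ member was included at 67.3%, 70.0% and 68.8% in md cells and 29.7%, 31.4% and 28.4% in ES cells, and the 5′ member at 32.4%, 29.7% and 31.0% against 69.5%, 68.3% and 71.1%. The groups did not overlap for either member, and nearly every transcript carried one of them. Tpm1 also began at different first exons. The upstream first exon, used by the long tropomyosins, held 93.3%, 92.4% and 92.5% of Tpm1 TPM in md cells and 42.2%, 39.7% and 50.2% in ES cells, while the internal one held 6.51% to 7.32% and 49.3% to 60.004%. The gene itself averaged 1186 TPM in md cells and 115 TPM in ES cells. In Actn1 (alpha-actinin), a 66-nt exon and an 81-nt exon replaced each other; the 81-nt exon was at 46.4%, 49.7% and 48.2% in md cells and 32.5%, 28.01% and 38.6% in ES cells (difference 15.1 points, SE 2.90).

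Numb, an inhibitor of Notch signalling whose 147-nt exon lies in the proline-rich region, had the opposite direction. Inclusion was 19.8%, 18.7% and 12.2% in md cells and 47.4%, 52.4% and 61.1% in ES cells, a difference of -36.7 points (SE 3.92, adjusted p = 2.06e-04). Numb was not called at gene level, at 10.7 and 9.56 TPM. Ctnnd1 (p120 catenin), which stabilises cadherins at the membrane, included its 63-nt exon at 57.4%, 62.3% and 57.7% in md cells and 84.6%, 84.6% and 83.8% in ES cells. Ptbp1 itself differed in its 34-nt exon, whose skipping shifts the reading frame (72.2%, 71.2% and 73.5% in md cells; 92.9%, 80.5% and 94.8% in ES cells), and in a 78-nt exon (30.5%, 30.9% and 32.1% against 55.8%, 61.3% and 51.0%). Map3k7, the kinase TAK1, included an 81-nt exon at 32.6%, 29.0% and 34.6% in md cells and 59.8%, 64.8% and 50.0% in ES cells. Tjp1, the tight junction protein ZO-1, included its 240-nt exon at 54.2%, 51.1% and 54.4% in md cells against 28.9%, 26.6% and 29.2% in ES cells. In Itgb1 (integrin beta 1), a 223-nt exon was included at 64.2%, 65.7% and 67.3% in md cells and at 100% in every ES library.

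**Figure D4:**
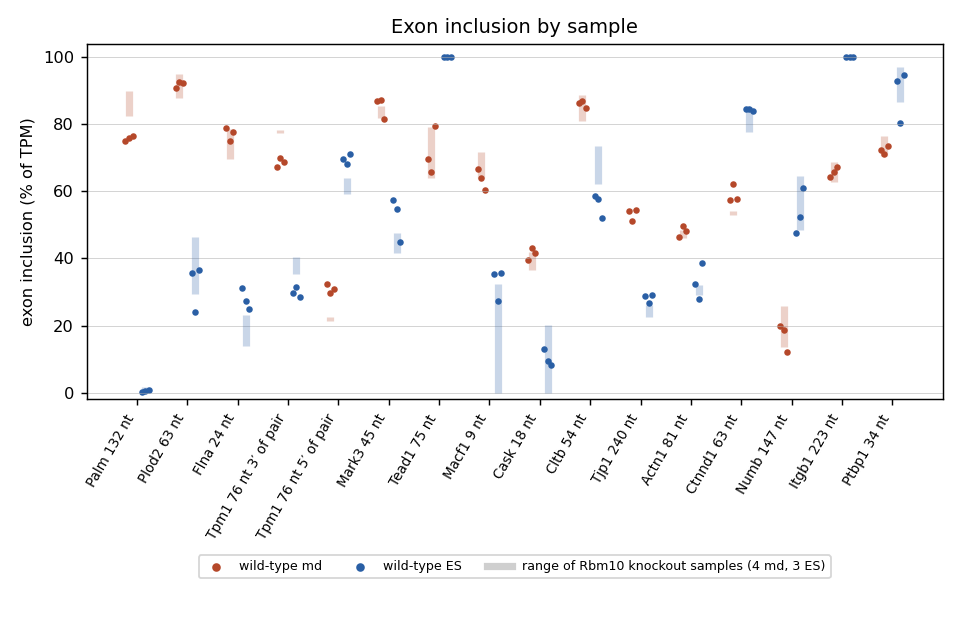
Inclusion of 16 exons, as percent of TPM, in each wild-type library (points) with the range of the Rbm10 knockout samples as pale bars (4 md clones and 3 ES libraries). All 16 were picked from called exons, so the lack of overlap between their wild-type groups was likely from that choice. The knockout ranges of the 2 cell types do not overlap for these 16. They do overlap for other called exons that are not drawn, such as a 76-nt exon of Tpm3 (64.5% to 82.2% in md clones, 78.3% to 82.8% in ES gene-trap libraries).

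The 15 exons with the largest differences in genes of at least 10 TPM in both cell types included Palm and the following. In Prkar1a, a regulatory subunit of protein kinase A, a 184-nt exon was at 100%, 86.3% and 100% in md cells and at most 1.26% in ES cells. In Hspa8, the constitutive heat shock chaperone, a block of 3 exons was at 91.7%, 91.2% and 91.5% in md cells and 10.7%, 8.90% and 9.49% in ES cells. Kpna2, a nuclear import receptor, had a 126-nt exon outside its coding sequence at 1.67% on average in md cells and 96.1% in ES cells; the only transcript with that exon is annotated as incomplete. In Clk1, a kinase that phosphorylates SR proteins, a 167-nt exon averaged 97.5% in md cells and 26.6% in ES cells. These values rest on how TPM is divided between a few overlapping transcripts, and the part of strain variation or of the quantification was not tested.

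Start and end choice differed about as often as exons. Among 7511 groups of overlapping first exons, 4285 (57%) differed in their share of the gene's TPM, and among 6974 groups of last exons 3857 (55.3%). Some of these groups consist of transcripts annotated as incomplete, whose ends need not be true starts or ends. The first exons of Lima1, Rbpj and Rbfox2 and the Rpl24 last exons given here hold complete transcripts only. Lima1, an actin-binding tumour suppressor with 2 main forms, used 1 first exon for 88.4%, 91.9% and 88.0% of its TPM in md cells, and its share was 0 in every ES library. Rbpj, the DNA-binding factor of the Notch pathway, used 1 first exon for 92.4%, 92.4% and 93.9% of its TPM in ES cells and for at most 0.747% in md cells. In Rbfox2, itself a splicing regulator, the upstream of 2 first exons held 38.0%, 36.1% and 30.6% in md cells and 73.2%, 68.7% and 52.6% in ES cells. In Rpl24, a ribosomal protein gene, 1 group of last exons held 92.9% on average in md cells and 5.29% in ES cells.

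Of 13867 transcripts tested, 7632 (55%) differed in their share of their gene. In 1088 of 4305 genes the leading transcript itself changed, with both leaders called in opposite directions. In 301 of these genes both leaders are protein-coding and annotated as complete. Palm was one of them: its leading transcript in md cells held 75.8% of its TPM there, and the leading one in ES cells held 99.5%. In Ctnnd1, the transcript that led in md cells with 36.0% was listed at 0 in ES cells, where another led with 45.3%. In the set of 4306 genes with an isoform unit tested, 3430 had at least 1 unit called. Of these, 2303 were not called at gene level and 1127 were. A unit needed at least 5 TPM in every library, which leaves out genes below that level in either cell type. Most tested exons (2543 of 3649) also lay in genes not called, so this split is not read as a result about isoforms.

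The 7 Rbm10 knockout libraries, which the tests did not use, gave a second measurement of both cell types, in the same tables and lines. Of the 3533 genes higher in wild-type md cells, 99.6% were also higher in the 4 md clones than in the 3 ES gene-trap libraries by their mean, and 92.1% did not overlap between them. For the 3121 genes higher in wild-type ES cells, the shares were 99.4% and 92.6%. Exons kept their direction in 98.8% of the 1162 with higher inclusion in md cells and 98.9% of the 1045 with higher inclusion in ES cells, and the knockout groups did not overlap for 87.6% and 87.8% of them. These shares cover called genes and exons only, and the shares over all those tested were not computed for the knockout libraries. In the wild-type libraries, 86.8% of all genes tested did not overlap. The knockout samples share line and culture conditions with the wild type. Agreement in direction for differences of that size was therefore likely beforehand. Palm lay between 82.5% and 89.9% in the md clones and at or below 1.54% in the ES gene-trap libraries. The Flna exon lay between 69.8% and 78.6% in the md clones and between 13.9% and 23.1% in the ES gene-trap libraries.

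The iCLIP libraries of md cells gave another look at which of these genes have RNA in md cells. Protein-coding genes were put into classes by their mean TPM: 188 were at 10 TPM or more in md cells and under 0.5 TPM in ES cells, 339 were the reverse, and 5002 were at 10 TPM or more in both. A crosslink of the RBM10 libraries fell in 91.0% to 96.3% of the md-restricted genes and in 18.9% to 35.7% of the ES-restricted genes. The IgG libraries, which measure the background of the method, had crosslinks in 73.9% to 96.3% and 4.72% to 33.0% of the same genes, so the contrast was present in the IgG background as well. The md-restricted genes held 2.14% to 2.89% of all RBM10 crosslinks and the ES-restricted genes 0.0371% to 0.0421%. In the IgG libraries these shares were 1.78% to 1.99% and 0.0506% to 0.0608%. Over Col1a2 there were 53733 crosslinks in the RBM10 libraries and 6422 in the IgG libraries, as raw sums not adjusted for the larger totals of the RBM10 set. Pou5f1, Zfp42, Utf1, L1td1 and Tdh had none in either set, which for each gene and set allows up to 3 crosslinks by counting error alone. Totals per library ran from 774816 to 2847066 crosslinks with the antibody and from 103017 to 2214515 with IgG. Overlapping genes share crosslinks in these counts.

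**Figure D5:**
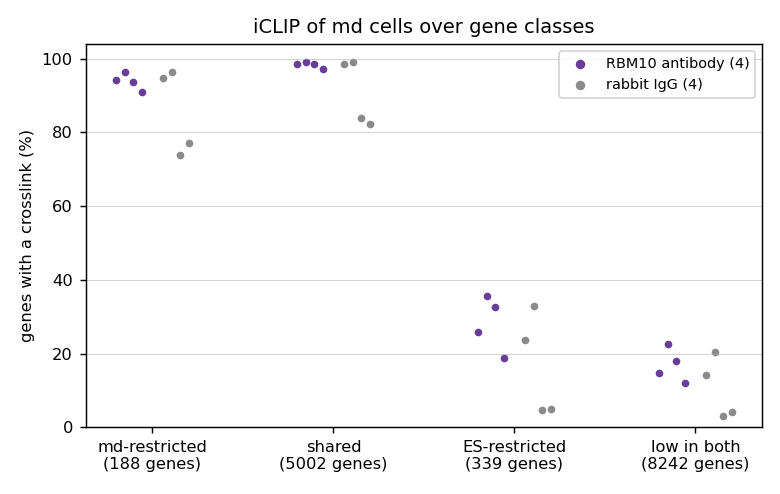
Percent of genes with at least 1 crosslink in each iCLIP library of md cells, for 4 classes of protein-coding genes defined by wild-type TPM; purple points are RBM10 libraries and grey points IgG libraries. Nearly all md-restricted and shared genes have a crosslink in the RBM10 libraries, while ES-restricted genes lie at 18.9% to 35.7%. In each RBM10 library that share is above the one for genes low in both cell types (12.1% to 22.6%). The same order holds in each IgG library, at 4.72% to 33.0% for ES-restricted genes and 3.14% to 20.5% for genes low in both.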

How the data were processed

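RNA was measured by poly(A)-selected RNA-seq, and the authors deposited TPM values per transcript in 1 table per cell line. Each column sums to the same total; the quantifier is not given in the sources used here, and the submitters' processing notes name mm9 and mm10 without a role. The iCLIP files hold crosslink counts per position, as deposited by the authors on mm9. Transcripts were joined by identifier to GENCODE mouse release 1 (mm9), and TPM was summed per gene. Groups were compared on log2(TPM + 1) with limma 3.58.1 in R 4.3.3 (trended empirical Bayes, Benjamini-Hochberg adjustment over all genes tested), for genes that reached 1 TPM in 3 or more of the 6 libraries. A call needed an adjusted p under 0.05 and a difference of at least 1. Exon inclusion and the shares of first exons, last exons and transcripts were tested with limma on percent, where every library had at least 5 TPM and the mean share lay between 5% and 95%; a call needed at least 10 points. Other work used Python 3.11.15. The scripts were tested on simulated data.

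The members and gene lists were chosen with earlier results of these data known. Genes named by rule are the 15 highest and 15 lowest differences among called genes with at least 50 TPM and no overlap, up to 5 list members by level and up to 3 by difference, the 15 largest exons, 8 first and 8 last exon groups and 10 transcript switches, called units of a list of isoform genes, and Rbm10, Rbm5 and Rbm6. Other genes named, such as Nid2, the laminins, Krt19, Cdh2, Dlx1, Dlx2, Ciita, H2-Aa, Tap1, Mbnl2, Mbnl3, Ptbp2, Rbm47, Top2a, Cdkn1a, Cirbp, Dnmt1 and the mandibular genes listed at or near 0, were chosen after their values were seen. Replicate numbers are shared between the cell lines, but nothing in the labels ties them, and the deviations of same-numbered libraries did not correlate. Alternatives changed the pseudocount, filter, scaling, thresholds and transcripts used, added a replicate block, and left out each library. Restricting to transcripts annotated as complete, and leaving out predicted genes and pseudogenes, were added after seeing the data. Values of some list members are not reported here.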

Additional observations from a re-analysis of the deposited data

Results flagged for a closer look

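In the iCLIP libraries of md cells, genes at 10 TPM or more in both cell types held 33.2% of all crosslinks in IgG replicate 4, against 37.0% to 37.7% in the other 3 IgG libraries. Its gap to the nearest library was 0.848 of the whole range, above Dixon's critical value for 4 samples. Such a test marks about 1 in 20 groups by chance. That library holds 157986 crosslinks, the second fewest of the 8.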

How the results depend on the processing

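The number of genes called (6654) stayed within 1.5 times under every alternative except a pseudocount of 5, with 3940, and an adjusted p alone, with 11679. A minimum of 20 points left 1219 exons, 2275 first exon groups, 2007 last exon groups and 3840 transcripts. Protein-coding transcripts alone gave 1217, 2025, 1670 and 4385, with fewer units tested. Leaving out 1 library moved no such count by 1.5 times. With a replicate block the counts were 6658 genes, 2231 exons, 4322 first exon groups, 3902 last exon groups and 7683 transcripts; same-numbered libraries correlated at 0.021, 0.0088 and -0.036, so the numbers do not pair the samples. Of 4323 comparisons of named genes with an alternative, 4238 kept direction and call. The gene Smad4 reversed to 0.67 with protein-coding transcripts only. So did 5 starts and ends: the Flna 492-nt start (-9.30, and -42.8 points with complete transcripts only), the Flna 517-nt end (-15.2 and -49.2 points), the Ptbp1 295-nt start (-14.1 points), the Add1 1839-nt end (-6.79 points) and the Dlg1 1676-nt end (-8.04 points); the cause was not tested. Read depth is unknown, so the precision of low TPM values cannot be given.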
